A study of Mus musculus with 12 samples.

Results

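Rbfox1, Rbfox2, Rbfox3, Nova1, Nova2, Mbnl1, Mbnl2, Elavl2, Elavl3 and Elavl4 encode RNA-binding proteins that set splice choice in neurons. They were chosen by name, although earlier results of these data were known. All 10 were measured, of 18312 genes with spliced reads at annotated introns in the larger deposited table and 17367 in the smaller. They account for 926 of 599830 distinct junctions with a gene symbol in the larger table, 114 of them annotated, and for 513 of 426002 in the smaller, 110 of them annotated. The libraries hold poly-A RNA of wild-type NMRI mice, sequenced strand by strand, with 2 libraries in each of 6 groups. Tissue libraries come from neocortex of pups 10 days old (P10) and of mice 49 days old (P49). Cells dissociated from neocortex of E16.5 embryos were cultured for 14 days and left untreated (control) or given 50 uM DRB, a blocker of transcription elongation, for 2 h. A second experiment gave such cultures 50 uM DRB for 2 h, either alone or with 20 uM bicuculline, a blocker of GABA-A receptors, for 1 h. All treated groups thus carry DRB, and no group had bicuculline without it. Some DRB column names also mention TTX, and no source used here says whether those cultures received it. Columns of the control, P49 and second DRB groups were identified by elimination. Those of the second DRB group are named ctl, and were given to DRB because per the labels that table holds only DRB and DRB with bicuculline.

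Rbfox proteins bind the sequence GCATG in pre-mRNA, and an exon is as a rule skipped when the site lies before it and included when it lies after it. Nova proteins bind clusters of short motifs such as TCAT and CCAT and were found as targets of antibodies in a neurological paraneoplastic syndrome. Mbnl proteins bind TGCT and CGCT, shift splicing from fetal to adult patterns, and are the proteins captured by the repeat RNA of myotonic dystrophy. Elavl2, Elavl3 and Elavl4, the neuronal Hu proteins, bind U-rich RNA and act on splicing, stability and translation. Several of these genes have alternative exons of their own, some of which move the protein between nucleus and cytoplasm.

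The exons on which the results below turn are shown first, read from GENCODE transcripts of release 21 (GRCm38), 5′ to 3′ on the sense strand. The exon pairs of Mbnl1 and Mbnl2 are shown because exons of equal length in the 2 paralogs are set side by side below. In the 36-base exons the capitals mark GCATG.
Mbnl1 exon of 54 bases, chr3:60614683-60614736, plus strand: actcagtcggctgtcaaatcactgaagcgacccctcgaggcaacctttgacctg
Mbnl2 exon of 54 bases, chr14:120395712-120395765, plus strand: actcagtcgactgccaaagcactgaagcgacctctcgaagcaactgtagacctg
Mbnl1 exon of 36 bases, chr3:60621423-60621458, plus strand: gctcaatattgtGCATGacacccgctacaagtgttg
Mbnl2 exon of 36 bases, chr14:120403336-120403371, plus strand: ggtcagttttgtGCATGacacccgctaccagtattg
The 54-base exons were identical at 46 of 54 positions and the 36-base exons at 31 of 36, and all 4 are coding and keep the frame. The Rbfox motif GCATG was found once in each 36-base exon, where 1.87% of the 536 annotated internal exons of that length hold it. It was found in neither 54-base exon, against 4.49% of 1360 exons of that length. TGCT or CGCT was found once in each 36-base exon, as CGCT, against 18.7% of exons of that length, and in neither 54-base exon, against 26.3%. Neither TCAT nor CCAT was found in these 4 exons, against 17.7% of 36-base and 25.9% of 54-base exons. A match is a string of letters in the exon, not a shown binding site, and introns were not searched.

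The 63-base and 111-base exons of Mbnl1 are shown because their use differed with DRB and with age. In both lines the capitals mark TCAT or CCAT.
Mbnl1 exon of 63 bases, chr3:60623979-60624041, plus strand: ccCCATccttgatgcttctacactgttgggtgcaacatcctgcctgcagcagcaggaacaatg
Mbnl1 exon of 111 bases, chr3:60596719-60596829, plus strand: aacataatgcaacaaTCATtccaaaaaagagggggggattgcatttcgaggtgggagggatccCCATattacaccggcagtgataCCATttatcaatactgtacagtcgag
The 63-base exon is annotated in a noncoding transcript only, and the 111-base exon is coding. The match occurs once in the 63-base exon, against 37.2% of 1212 exons of that length with at least 1, and 3 times in the 111-base exon, against 62.0% of 1756 exons of that length. TGCT is present once in the 63-base exon, where 32.7% of exons of that length hold TGCT or CGCT.

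The 40-base exons of Rbfox1 and Rbfox2 are shown with the 43-base exons used in their place. The junction listed for the shorter exon had far more reads in every library. No letters are marked in these lines.
Rbfox1 exon of 40 bases, chr16:7363865-7363904, plus strand: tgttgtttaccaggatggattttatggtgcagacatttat
Rbfox2 exon of 40 bases, chr15:77094451-77094490, minus strand: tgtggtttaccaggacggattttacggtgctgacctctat
Rbfox1 exon of 43 bases, chr16:7369801-7369843, plus strand: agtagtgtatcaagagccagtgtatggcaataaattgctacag
Rbfox2 exon of 43 bases, chr15:77091812-77091854, minus strand: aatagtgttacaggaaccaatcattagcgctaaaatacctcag
The 40-base exons shared 34 of 40 positions and the 43-base exons 27 of 43. GCATG is in none of the 4.

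Libraries held 49520081 to 73835436 spliced reads with a gene symbol in the larger table and 62364553 to 69786511 in the smaller. Gene levels are the spliced reads summed over a gene's annotated junctions, as counts per 1e6 of the library's such reads after TMM scaling (CPM), and are given as mean ± SD with n = 2. They are shares of a library's RNA, so they do not give RNA per cell. The 2 tables were scaled separately, so levels set across them are a description. Changes are log2 differences with standard error (SE) from edgeR's quasi-likelihood test, called at a Benjamini-Hochberg adjusted p of 0.05 over all 15256 genes tested in the larger table or 14138 in the smaller. Rose and fell are used only of genes that passed. In these bulk samples fewer cells of a type and less RNA per cell cannot be told apart. No label ties a group's 2 libraries to different animals or cultures, and the P10 columns share 1 tissue code, while the P49 columns carry 2 different ones. The p-values therefore rest on library spread that may be technical. The comparisons of control with tissue and of DRB with control share the control libraries, as the 2 comparisons with P49 and the 2 with P10 share those.

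Defining markers of neurons were detected in every group. The summed level of 8 neuronal markers was 5882 to 5928 CPM at P10, 7642 to 7643 at P49, 2490 to 2589 in control cultures and 4645 to 4798 in the DRB cultures of the first experiment. All 8 rose with DRB, with a median log2 change of 0.99, where the median over all genes tested was -0.03. Against P10, 6 of the 8 were lower in control cultures and 2 higher, Gad1 (226 CPM at P10, 371 in control) and Map2 (378 and 436), and against P49 5 were lower and 2 higher. Markers of immature neurons summed to 766 to 867 CPM at P10, 50.8 to 56.0 at P49 and 869 to 874 in control cultures. Of 4 such markers 3 were tested, and all 3 fell from P10 to P49 (median log2 change -2.36), all 3 were higher in control cultures than at P49 (median 4.06) and 2 of 3 were higher than at P10. The summed level of 8 oligodendrocyte markers was 954 to 1106 CPM at P10, 2828 to 2886 at P49 and 102 to 115 in control cultures. All 8 rose from P10 to P49 and all 8 were lower in control cultures than in either tissue. The summed level of astrocyte markers was 1455 to 1565 CPM at P10, 1962 to 2051 at P49, 2024 to 2069 in control cultures and 1906 to 2001 with DRB. Single astrocyte markers were mixed: of 7 tested, 2 rose and 3 fell from P10 to P49 (median log2 change -0.08). With DRB 2 rose and 4 fell (median -0.35). In control cultures 5 were higher and 2 lower against P10, and 5 and 2 against P49. Of 6 microglia markers 5 were lower in control cultures than at P10, and 5 than at P49. With DRB all 5 markers of oligodendrocyte precursors fell, as did 4 of 6 tested markers of endothelial and mural cells. These values move with several results below, and their part in them was not tested.

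**Figure D1:**
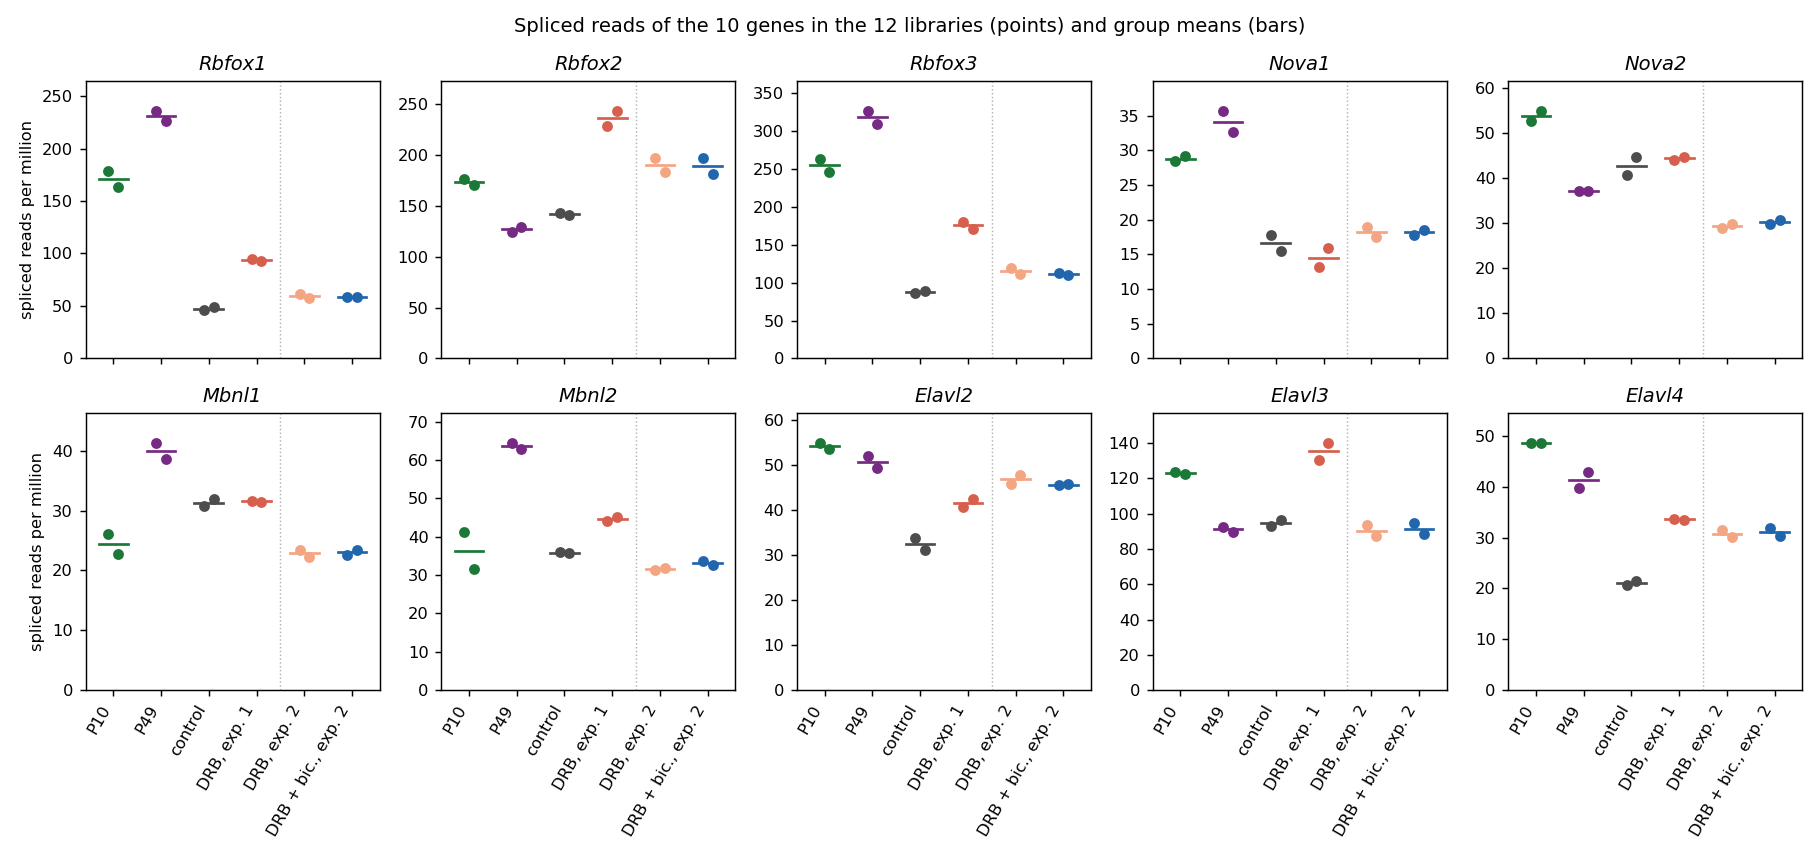
Level in CPM (vertical axes, linear, each gene on its own scale from 0) for the 10 genes in the 12 libraries. Points are libraries, short bars are means of 2, and the dotted line separates the 2 experiments. Rbfox1 and Rbfox3 were highest at P49 and lowest in control cultures, and each of the 10 genes had nearly equal levels in the last 2 groups.

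Between P10 and P49, 4 members rose (Rbfox1, Rbfox3, Mbnl1, Mbnl2), 4 fell (Rbfox2, Nova2, Elavl3, Elavl4) and 2 were not called (Nova1, Elavl2). Of all genes tested, 28.3% were called higher at P49 and 29.0% lower, so a share of 4 in 10 in each direction is not far from the background. The median log2 change of the members was 0.07, and that of all genes was 0.00. Families did not move as blocks: the 3 Rbfox genes split, whereas both Mbnl genes rose and 2 of 3 Elavl genes fell. The comparison bears on how the set of splicing regulators differs between developing and adult cortex.

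Rbfox1, a regulator of synaptic and ion channel exons, had 178 and 163 CPM at P10 and 236 and 226 at P49. Both P49 libraries were above both P10 libraries, and the log2 change was 0.44 ± 0.05 (edgeR, adjusted p = 2.8e-05). Rbfox3, whose protein is the neuronal nuclear antigen NeuN, had 264 and 246 CPM at P10 and 327 and 310 at P49. The groups did not overlap, and the log2 change was 0.32 ± 0.05 (edgeR, adjusted p = 0.00022). Rbfox2, which is also expressed outside neurons, went the other way, from 176 and 170 CPM to 124 and 129. Its log2 change was -0.45 ± 0.05 (edgeR, adjusted p = 8.3e-06).

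Mbnl2 made the largest change among the members with age. It had 41.3 and 31.5 CPM at P10 and 64.5 and 62.9 at P49, a log2 change of 0.81 ± 0.10 (edgeR, adjusted p = 2.7e-05). At P10 the 2 libraries lay further apart for Mbnl2 (36.4 ± 6.9) than for any other member relative to its mean. Mbnl1 had 26.1 and 22.8 CPM at P10 and 41.4 and 38.6 at P49, a log2 change of 0.71 ± 0.08 (edgeR, adjusted p = 1.0e-05). Oligodendrocyte markers rose in the same comparison (8 of 8, median log2 change 1.75), and whether the Mbnl values moved with the share of these cells was not tested.

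Nova2 fell from 52.6 and 54.9 CPM to 37.04 and 37.2, a log2 change of -0.53 ± 0.06 (edgeR, adjusted p = 1.7e-05). Nova1 had 28.5 and 29.1 CPM at P10 and 35.7 and 32.6 at P49, with both P49 libraries above both at P10. It missed the threshold by little (log2 change 0.24 ± 0.10, edgeR, adjusted p = 0.0505) and passed it with DESeq2 (adjusted p = 0.027) and in 4 other alternatives, with adjusted p from 0.023 to 0.23 over all of them. Elavl3 fell from 124 and 122 CPM to 92.4 and 89.7 (log2 change -0.43 ± 0.05, edgeR, adjusted p = 1.8e-05). Elavl4, known as HuD, fell from 48.5 and 48.7 CPM to 39.8 and 42.8 (log2 change -0.24 ± 0.06, edgeR, adjusted p = 0.0060), a call that was lost without P49 library 1 (adjusted p = 0.071). Elavl2 had 55.0 and 53.6 CPM at P10 and 51.9 and 49.3 at P49 and was not called (log2 change -0.10 ± 0.06, edgeR, adjusted p = 0.17). The markers of immature neurons fell over the same ages, and their part in the lower Nova2, Elavl3 and Elavl4 levels was not tested.

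In control cultures 8 of 10 members were lower than at P10, 1 (Mbnl1) was higher, and Mbnl2 was not called. Of all genes 37.2% were higher and 37.2% lower in that comparison. The members' median log2 change was -0.56, against 0.01 over all genes. Against P49, 7 members were lower, 2 (Rbfox2, Nova2) higher and 1 (Elavl3) not called, where 39.5% of all genes were higher and 37% lower. The medians there were -0.74 for the members and 0.04 for all genes. Neuronal markers were lower in the same direction (6 of 8 against P10, median log2 change -1.32, and 5 of 8 against P49, median -1.09).

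Rbfox1 and Rbfox3 had the largest differences. Rbfox1 stood at 45.9 and 48.7 CPM in control cultures, 3.61-fold below P10 (log2 change -1.85 ± 0.06, edgeR, adjusted p = 1.0e-10) and 4.88-fold below P49 (-2.29 ± 0.06, adjusted p = 1.2e-11). Rbfox3 stood at 86.3 and 89.1 CPM, a log2 change of -1.54 ± 0.05 against P10 (edgeR, adjusted p = 2.4e-10) and -1.86 ± 0.05 against P49 (adjusted p = 3.7e-11). Rbfox2 had 143 and 141 CPM, between the 2 tissues, below P10 by a log2 change of -0.29 ± 0.05 (edgeR, adjusted p = 0.00015) and above P49 by 0.16 ± 0.05 (adjusted p = 0.0085). The call against P49 was lost without P49 library 1 (adjusted p = 0.072). Of the 3 genes, Rbfox2 had the smallest differences between culture and tissue.

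The Hu genes also separated. Elavl4 had 20.8 and 21.5 CPM in control cultures, lower than P10 by a log2 change of -1.20 ± 0.06 (edgeR, adjusted p = 7.5e-09) and than P49 by -0.97 ± 0.06 (adjusted p = 4.2e-08). Elavl2 had 33.7 and 31.1 CPM, with log2 changes of -0.75 ± 0.06 and -0.64 ± 0.06 against P10 and P49 (edgeR, adjusted p = 4.4e-07 and 1.5e-06). Elavl3 had 92.8 and 96.5 CPM, lower than P10 by -0.38 ± 0.05 (edgeR, adjusted p = 2.7e-05) and not called against P49 (0.06 ± 0.05, adjusted p = 0.32).

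Nova1 had 17.8 and 15.5 CPM in control cultures, with log2 changes of -0.79 ± 0.10 against P10 and -1.04 ± 0.10 against P49 (edgeR, adjusted p = 2.0e-05 and 1.7e-06). Nova2 had 40.6 and 44.6 CPM, lower than P10 (-0.34 ± 0.06, edgeR, adjusted p = 0.00036) and higher than P49 (0.20 ± 0.06, adjusted p = 0.011), where the call was lost without control library 2 (adjusted p = 0.11). Mbnl1 had 30.8 and 31.9 CPM, above both P10 libraries (0.36 ± 0.08, edgeR, adjusted p = 0.0012) and below both P49 libraries (-0.35 ± 0.08, adjusted p = 0.0011). Mbnl2 had 35.9 and 35.6 CPM, inside the range of the P10 libraries (log2 change -0.02 ± 0.10, edgeR, adjusted p = 0.83) and below both P49 libraries (-0.83 ± 0.10, edgeR, adjusted p = 9.4e-06). Its difference from P10 turned on a single P10 library: it was called higher without P10 library 1 (log2 change 0.18, adjusted p = 0.031) and lower without P10 library 2 (-0.22, adjusted p = 0.013).

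**Figure D2:**
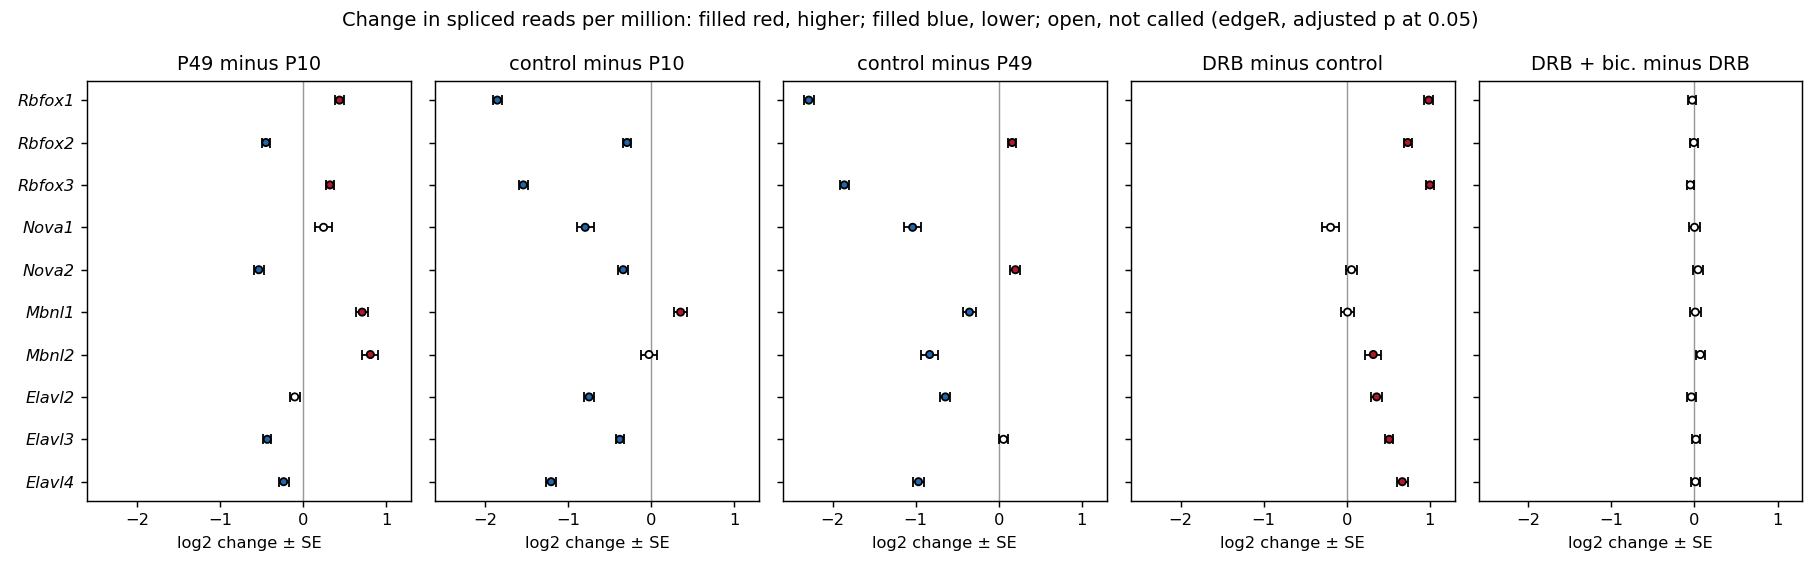
Log2 change in CPM (horizontal axes) with SE bars for the 10 genes in 5 comparisons, 2 libraries a group. Filled red points were called higher, filled blue points lower and open points not called, at an adjusted p of 0.05. The changes in culture against tissue reach -2.29 for Rbfox1, and all 10 points of the bicuculline comparison lie between -0.05 and 0.07.

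With DRB for 2 h, 7 of 10 members rose as a share of spliced reads and none fell. The 7 were Rbfox1, Rbfox2, Rbfox3, Mbnl2, Elavl2, Elavl3 and Elavl4. Of all genes 30% were called higher and 33.3% lower, and the median log2 change was 0.44 for the members and -0.03 for all genes. The comparison bears on which transcripts remain when elongation is blocked, and since levels are shares, a rise does not show more RNA per cell. The neuronal markers rose in the same comparison, by a median log2 change of 0.99.

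All 3 Rbfox genes rose. Rbfox1 went from 45.9 and 48.7 CPM in control to 95.0 and 92.8 (log2 change 0.99 ± 0.06, edgeR, adjusted p = 7.4e-08), and Rbfox3 from 86.3 and 89.1 to 180 and 171 (1.00 ± 0.05, adjusted p = 5.6e-08). For both, the DRB libraries lay below every tissue library. Rbfox2 went from 143 and 141 CPM to 228 and 243 (0.73 ± 0.05, edgeR, adjusted p = 1.6e-07), above all tissue libraries.

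All 3 Hu genes rose as well. Elavl4 went from 20.8 and 21.5 CPM to 33.8 and 33.4 (log2 change 0.67 ± 0.06, edgeR, adjusted p = 2.8e-06). Elavl3 went from 92.8 and 96.5 to 130 and 140 (0.51 ± 0.05, adjusted p = 3.5e-06, edgeR), and Elavl2 from 33.7 and 31.1 to 40.8 and 42.4 (0.36 ± 0.06, adjusted p = 0.00033). In each of the 3 the DRB libraries lay above both controls.

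The Nova and Mbnl genes changed less. Nova1 had 13.1 and 15.96 CPM with DRB, overlapping the controls, and was not called (log2 change -0.19 ± 0.10, edgeR, adjusted p = 0.12), although it was called lower without DRB library 2 (adjusted p = 0.026). Nova2 had 44.02 and 44.7 CPM (0.06 ± 0.06, edgeR, adjusted p = 0.43) and Mbnl1 31.6 and 31.5 CPM (0.01 ± 0.08, adjusted p = 0.91), neither of them called. Mbnl2 had 44.1 and 45.2 CPM, above both controls (0.32 ± 0.10, edgeR, adjusted p = 0.014), but leaving out any 1 of the 4 libraries lost the call, with adjusted p from 0.051 to 0.078.

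Bicuculline in the presence of DRB gave no call for any member with edgeR or with DESeq2, and none had an unadjusted p under 0.05. Over all genes 0.212% were called. Log2 changes ran from -0.05 ± 0.04 for Rbfox3 (119 and 111 CPM with DRB, 113 and 110 with bicuculline added) to 0.07 ± 0.06 for Mbnl2 (31.4 and 31.9 against 33.7 and 32.7), and the smallest unadjusted p was 0.22. A p that misses the threshold does not show that the levels were equal. In both groups of this experiment Rbfox1 (57.4 to 61.2 CPM) and Rbfox3 (110 to 119 CPM) stood above the control cultures of the first experiment and below its DRB cultures.

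To set the genes beside each other free of length, the median CPM over each gene's junctions that had no annotated competitor above 1% of the reads was taken, as a level per junction. At P10 the order was Elavl3 (27.3 ± 0.02), Rbfox3 (23.8 ± 0.6), Nova2 (17.1 ± 0.8), Rbfox2 (14.9 ± 0.3), Rbfox1 (13.04 ± 0.73), Elavl4 (8.85 ± 0.05), Elavl2 (8.70 ± 0.16), Nova1 (5.93 ± 0.33), Mbnl2 (4.11 ± 0.42) and Mbnl1 (1.60 ± 0.21). Elavl4 and Elavl2 did not differ beyond their spread. At P49 Rbfox3 led with 29.9 ± 0.6, followed by Elavl3 (20.3 ± 0.8) and Rbfox1 (18.5 ± 0.9), and in control cultures Elavl3 led with 20.6 ± 1.2, followed by Nova2 (13.6 ± 0.6) and Rbfox2 (11.7 ± 0.5). Rbfox1 was at 3.70 ± 0.06 in control cultures, between Elavl4 (4.06 ± 0.30) and Nova1 (3.03 ± 0.20), and Elavl3 was the only member among the 2 highest in all 6 groups. The medians rest on 3 to 12 junctions a gene. Junctions with almost no reads are among these in some genes, such as one of Mbnl2 with 0 and 0 reads at P10 and one of Elavl4 with 4 and 3. Such junctions lower a median, and Nova2 and Elavl3 have none among theirs, so the order may depend on them. Because most skipping junctions are not listed, junctions of cassette exons also enter the medians, in Mbnl1 for example those of the 54-base exon, with 96 reads on each side in P10 library 1 beside up to 331 at other junctions of the gene.

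Among 9248 genes expressed at a mean log2 CPM above 3, the pattern most like that of Rbfox1 over the 8 libraries of the larger table was that of Ckmt1 (Pearson's r = 0.999), a mitochondrial creatine kinase, followed by Rap1gap (0.999). For Rbfox3 these were Camkk2 (0.998) and Thy1 (0.998), and for Elavl4 Stx1a (0.998), a syntaxin of the synaptic release machinery, and Abcg4 (0.997). For Rbfox2 they were Nkain2 (0.996) and Sh3yl1 (0.994), for Nova1 Man2a1 (0.9897) and Ulk1 (0.9897), and for Nova2 Vash1 (0.989) and Dok4 (0.987). For Mbnl1 they were Itm2c (0.985) and Adi1 (0.985), for Mbnl2 Unc80 (0.988) and Etnk1 (0.987), for Elavl2 Myt1l (0.991) and Akap6 (0.9899), and for Elavl3 Clasp2 (0.989) and Mrfap1 (0.988). These correlations describe 8 libraries that share 4 groups, and the highest values among so many genes are high by selection.

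Of 23 other splicing regulators listed for comparison, 21 were tested. From P10 to P49, 3 rose (Celf1 0.24 ± 0.05, Celf4 0.21 ± 0.04 and Msi2 0.37 ± 0.09, log2) and 7 fell, with a median of -0.07. The 4 with the smallest p among those that fell were Celf3 (-0.56 ± 0.06), Celf6 (-0.70 ± 0.08), Ptbp1 (-0.42 ± 0.05) and Msi1 (-0.43 ± 0.07). In control cultures 10 of 21 were higher and 9 lower than at P10, with Ptbp1, which represses neuronal exons and is known from non-neuronal and progenitor cells, at 1.46 ± 0.05, Msi1 at 1.32 ± 0.07, Msi2 at 1.37 ± 0.09 and Qk at 1.26 ± 0.09. The lowest by p were Celf3 (-1.07 ± 0.06), Srrm3 (-1.15 ± 0.08), Celf5 (-1.06 ± 0.08) and Khdrbs3 (-0.61 ± 0.04). Against P49, 12 were higher and 8 lower, led by Ptbp1 (1.89 ± 0.05), Msi1 (1.75 ± 0.07), Khdrbs1 (0.59 ± 0.04) and Qk (1.13 ± 0.09) and, among the lower, by Celf4 (-0.72 ± 0.04), Khdrbs3 (-0.58 ± 0.04), Celf5 (-0.85 ± 0.08) and Srrm3 (-0.83 ± 0.08).

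With DRB 11 of these 21 rose and 8 fell. Celf4 (log2 change 0.80 ± 0.04), Celf3 (0.94 ± 0.06), Khdrbs2 (1.19 ± 0.08) and Khdrbs3 (0.53 ± 0.04) led those that rose, and Ptbp1 (-1.23 ± 0.05), Msi1 (-0.90 ± 0.07), Qk (-0.81 ± 0.09) and Rbm38 (-2.62 ± 0.29) those that fell. Ptbp1 had 142 and 141 CPM in control and 58.7 and 61.4 with DRB. None of the 21 was called with bicuculline by edgeR. The list's medians were 0.02 against P10, 0.22 against P49 and 0.18 with DRB, beside 0.01, 0.04 and -0.03 for all genes.

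Junction use was examined next. The tables limit what can be said of skipping: of 102 annotated introns of the members that span no annotated exon 93 were listed, but of 80 that span at least 1 exon, as a skipping junction does, only 20 were. For most cassette exons no share of skipping could thus be formed. For these the reads of every listed annotated junction at the exon's edges are given as a percentage of all the gene's annotated reads in that library, called the exon's share of reads. It is no percentage of transcripts, it depends on how many junctions of the gene are listed, and it is set beside others here only for the same exon. It also shifted between the 2 experiments for exons without a call. With DRB the 73-base exon of Rbfox2 held 17.5% ± 0.3 in the first and 7.91% ± 0.46 in the second. Shares set across experiments are thus a description. The test beside this share asks whether a junction's reads changed against the other annotated junctions of the same gene (edgeR's diffSpliceDGE), and was added after the gap in skipping junctions was seen. It gave 6 calls among 96 member junctions for P49 against P10, where 1.69% of all junctions were called. For control against P10 it gave 6 of 96 (background 5.60%), for control against P49 9 of 96 (5.51%), for DRB against control 2 of 96 (1.66%), and with bicuculline 0 of 92 (0.00217%, with 1 at an unadjusted p under 0.05 and 0 by limma). The calls fell in 4 genes, Rbfox1, Mbnl1, Mbnl2 and Elavl2.

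Where a splice site had at least 2 listed annotated junctions and 20 reads a library, the share of each junction among the site's reads was tested with the same tool. This left 35 pairs of a junction and a site, at 17 sites in 8 members, where a junction tested at both its sites counts as 2 pairs. For P49 against P10 3 of 35 were called (background 4.03% of all such pairs), for control against P10 1 (9.03%), for control against P49 4 (12.6%), for DRB against control 2 (4.81%), and with bicuculline 0 of 30 (0.00920%, with 0 at an unadjusted p under 0.05 and 0 by limma). Calls with a difference of at least 10 percentage points were at 3 sites of Mbnl1 and 1 of Rbfox1.

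In both Mbnl genes the 54-base exon, known from work on these genes to carry a nuclear localisation signal and to be prominent in fetal tissue, held a smaller share of reads at P49 than at P10. In Mbnl1 that share was 10.7% and 9.35% in the P10 libraries, 5.37% and 5.61% at P49, 11.8% and 10.7% in control cultures and 12.7% and 13.2% with DRB. No culture library was as low as either P49 library. The junction leaving the exon had 96 and 88 reads at P10 and 68 and 62 at P49, while the gene as a whole rose. Relative to the gene it fell by 1.04 on the log2 scale (edgeR, adjusted p = 0.00042), and in control cultures it was higher than at P49 by 1.20 (adjusted p = 3.1e-06). The junction entering the exon was not called for P49 against P10 (adjusted p = 0.074) and was called for control against P49 (adjusted p = 0.0026, and 0.054 without control library 1).

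The Mbnl2 exon held 21.2% and 20.6% of the gene's reads at P10, 13.7% and 12.9% at P49, 18.1% and 18.9% in control cultures and 22.3% and 26.0% with DRB. The P49 libraries were again the 2 lowest of the 8. The junction leaving the exon fell by 0.73 relative to the gene between P10 and P49 (edgeR, adjusted p = 0.017). That call was lost without either P49 library (adjusted p = 0.26 and 0.23) and with only the 2 groups in the fit (0.21). The junction entering it was not called (adjusted p = 0.19). In the second experiment the shares were 18.6% and 19.8% with DRB and 18.0% and 19.8% with bicuculline, and in Mbnl1 11.3% and 11.3%, and 9.52% and 12.4%. Markers of immature neurons were likewise lowest at P49, and their part in these exons' values was not tested.

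The 36-base exons are printed above with their shared GCATG. In Mbnl2 this exon held 24.8% and 22.7% of the gene's reads at P10, 21.2% and 23.4% at P49, 12.7% and 14.5% in control cultures and 21.2% and 18.7% with DRB. The control libraries were below all 4 tissue libraries, while 1 of the DRB libraries lay within the range of tissue. The junctions on both sides of the exon were lower in control cultures than at P10 relative to the gene (edgeR, log2 -0.74, adjusted p = 0.023, and -0.86, adjusted p = 0.0013). Against P49 the junction leaving it was also lower (-0.76, adjusted p = 0.0037) and the one entering it was not called (adjusted p = 0.055). Without control library 1 the adjusted p of the junction leaving it was 0.088 against P10 and 0.15 against P49. The junction entering it lost its call against P10 without either control library (0.45 and 0.11) and with only those groups in the fit (0.12). The call against P49 was lost also without P49 library 2 (0.072) or control library 2 (0.084). With DRB neither junction was called against control (adjusted p = 0.47 entering and 0.11 leaving). In the second experiment the shares were 11.8% and 12.0% with DRB, and 10.9% and 9.21% with bicuculline. In Mbnl1 the matching exon held 13.8% to 17.6% of reads in the 8 libraries of the larger table, with no call in any comparison. Whether the paralogs differed in this was not tested. Further upstream, 2 junctions of Mbnl2 were higher relative to the gene in control cultures than at P10 (0.48 and 0.46, edgeR, adjusted p = 0.048 for each), and both calls were lost without either control library (adjusted p from 0.14 to 0.60) and with only those groups in the fit (0.18).

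**Figure D3:**
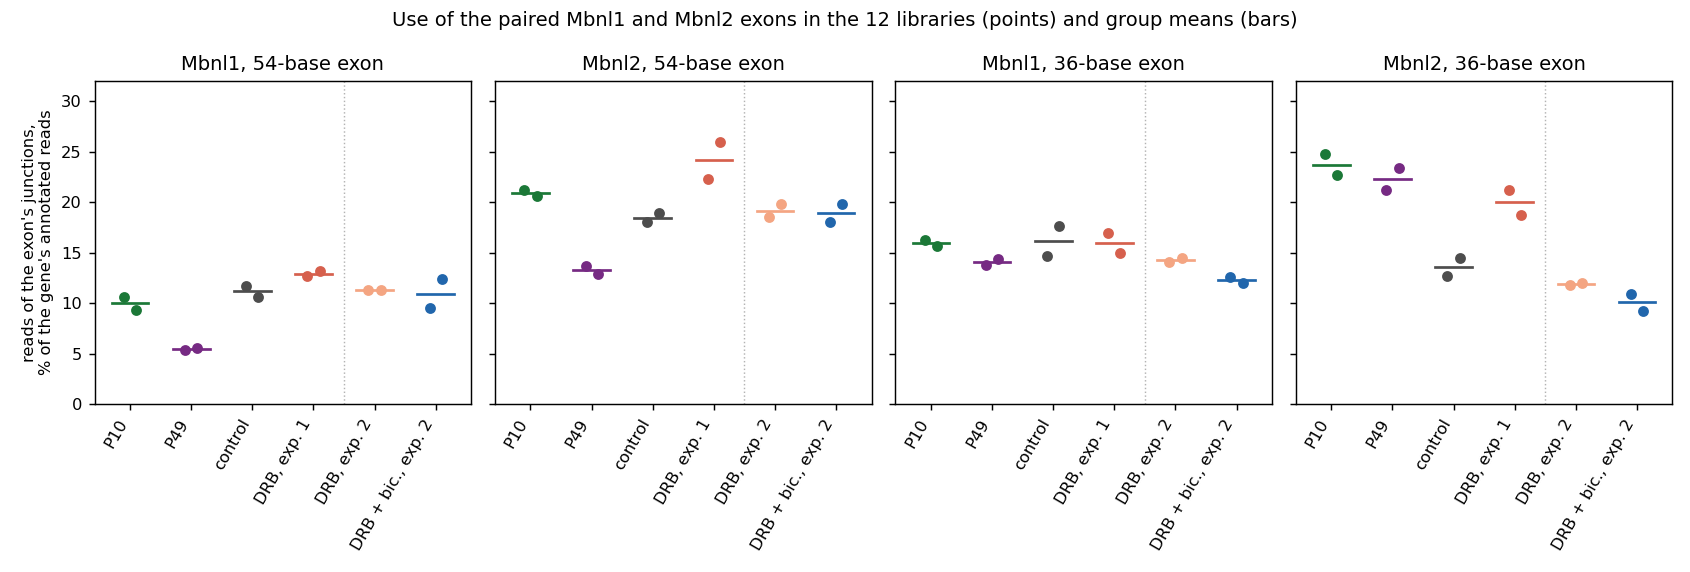
Reads of the junctions at the 54-base and 36-base exons of Mbnl1 and Mbnl2 as a percentage of the gene's annotated reads (vertical axis) in 12 libraries. Points are libraries and bars are means of 2. Both 54-base exons are lowest at P49, at 5.37% to 5.61% in Mbnl1 and 12.9% to 13.7% in Mbnl2, and the Mbnl2 36-base exon is lower in the control cultures, at 12.7% to 14.5%, than in tissue.

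The 111-base exon of Mbnl1, whose sequence is given above, is one of the few for which the skipping junction was listed. At the donor before it, the exon took 34 of 192 and 28 of 148 reads at P10 (17.7% and 18.9%) and 111 of 311 and 98 of 271 at P49 (35.7% and 36.2%). The share rose by 17.6 percentage points with age (edgeR, adjusted p = 0.015), and every library left out in turn raised the adjusted p above the threshold, to between 0.075 and 0.18, with the direction kept. Against the rest of the gene, the junction entering the exon rose by 1.21 (log2, edgeR, adjusted p = 0.00068), and this call held with each library left out (at most 0.038). The junction leaving the exon had a log2 difference of 0.36 in the same test and was not called. A test on logits of the donor share gave an adjusted p of 0.00024 (limma). Control cultures had 26.4% and 22.8% and DRB cultures 34.1% and 33.9%, a difference that neither the edgeR nor the logit test called. Control against P49 was called by the logit test (limma, adjusted p = 0.017) and not by edgeR. The libraries of the second experiment ranged from 30.7% to 35.0%. At the acceptor after the exon, the exon's share was 24.4% and 27.3% at P10 and 32.4% and 32.4% at P49. Neither edgeR nor the logit test called this (limma, adjusted p = 0.28). Control cultures had 20.1% and 27.4% there and DRB cultures 36.4% and 36.9%. That difference was called by the logit test (limma, adjusted p = 0.036) and not by edgeR.

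The 63-base Mbnl1 exon had its highest counts in cultures given DRB. At the donor before it, 0 of 250 and 0 of 277 reads went to the exon in control cultures, which allows a share of up to 0.569% over both libraries, and 25 of 207 and 27 of 255 did with DRB (12.1% and 10.6%). At the acceptor after it the counts were again 0 of 250 and 0 of 277 in control, and 40 of 222 and 53 of 281 with DRB (18.0% and 18.9%). Both junctions were called (edgeR, adjusted p = 4.2e-06 and 1.4e-07), also with each library left out. A count of 0 over both control libraries allows up to 3 reads. Against that limit, the observed share over both DRB libraries was 19.8-fold higher at the donor and 32.5-fold higher at the acceptor. The limit covers counting error only, since reads carry no molecular identifiers. It covers that of the control libraries and not that of the DRB share.

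In tissue the exon was rare, with 1 read in all at its donor junction at P10 and 5 of 774 at P49. At its acceptor 1 of 529 reads at P10 and 11 of 780 at P49 came from it. Its acceptor share was called lower in control cultures than at P49 (edgeR, adjusted p = 0.012), a call lost without either control library (0.12 and 0.15). The DRB cultures of the second experiment also held it, at 6.5% and 10.5% of the acceptor's reads, and those with bicuculline at 7.2% and 11.3%. At the donor the shares were 4.1% and 6.4% with DRB, and 5.2% and 2.0% with bicuculline. In each library given DRB the junction entering the exon had fewer reads than the one leaving it. Per the labels, that experiment has no group without DRB. The total level of Mbnl1 did not pass the test with DRB, as given above. Among the 35 tested member pairs of junction and site, those of these 2 junctions were the ones called in the DRB comparison. The exon is annotated in a transcript with no coding sequence, so its use was measured here as a junction only.

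**Figure D4:**
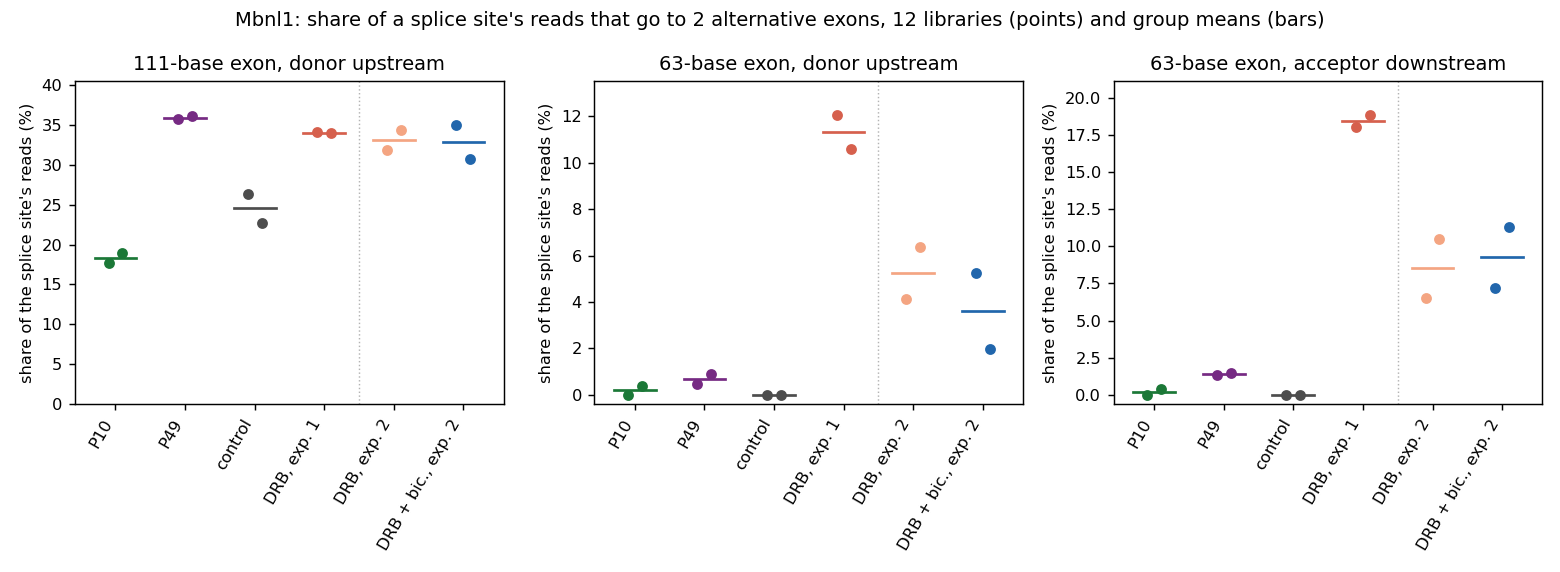
Share of a splice site's reads (vertical axes, percent) that go to the 111-base exon and, at 2 sites, to the 63-base exon of Mbnl1 in 12 libraries. Points are libraries and bars are means of 2. The 63-base exon stands at 0 in both control libraries and at 10.6% to 18.9% with DRB in the first experiment, and the 111-base exon at 17.7% and 18.9% at P10 against 35.7% and 36.2% at P49.

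Rbfox1 spans many alternative first exons, and their junctions differed between groups. The most 5′ of them with reads, chr16:5885355-5885864, joins over a very long intron to the exon that follows, with 450 and 475 reads at P10, 365 and 298 at P49 and 150 and 162 in control cultures. Relative to the gene this junction fell by 0.74 (log2) from P10 to P49 (edgeR, adjusted p = 6.7e-06) and was higher in control cultures than at P10 by 0.63 (adjusted p = 0.00058) and than at P49 by 1.36 (adjusted p = 7.2e-13). As a share of the gene's annotated spliced reads it was 3.78% ± 0.17 at P10, 2.26% ± 0.07 at P49 and 5.84% ± 0.36 in control cultures. The level of the junction itself was 6.45 ± 0.10, 5.23 ± 0.31 and 2.76 ± 0.05 CPM in these groups, so it was lowest in culture although its share was highest there. The next junction of the same transcript moved alike, with log2 values of -0.62, 0.56 and 1.19 in the 3 comparisons (edgeR, adjusted p = 1.9e-05, 0.00038 and 6.9e-13). Leaving out control library 2 lost its call for control against P10 (adjusted p = 0.087).

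The second first exon, chr16:6349138-6349231, shares its acceptor with that transcript. It took 27.2% and 26.7% of the acceptor's annotated reads at P10, 40.3% and 44.2% at P49, 18.4% and 15.9% in control cultures and 19.2% and 18.3% with DRB. P49 was highest and the cultures lowest, with no overlap between P10, P49 and control. The difference from P10 to P49 was 15.3 percentage points (edgeR, adjusted p = 0.0030, and 0.081 without P49 library 2). Against P10 the control cultures were lower (adjusted p = 0.018) and against P49 too (adjusted p = 2.1e-06, at most 0.0011 with 1 library left out). The call against P10 was lost without P10 library 1 or either control library (adjusted p from 0.066 to 0.36). Tested against the other junctions of the gene, this junction had a log2 difference of 0.37 from P10 to P49 (edgeR, adjusted p = 0.30), of -0.28 in control cultures against P10 (adjusted p = 0.60) and of -0.65 against P49 (adjusted p = 0.016, lost without P49 library 2 or either control library, 0.11 to 0.38). The competing junction at the acceptor had differences of -0.62, 0.56 and 1.19 in the same 3 comparisons, each larger in size than that of this junction. In the larger table's counts, 83.2% of Rbfox1 reads fell on annotated junctions, the lowest share among the members. When every listed junction was counted, the shares of this exon were 19.0% and 18.9% at P10 and 29.0% and 30.7% at P49 (adjusted p = 0.0026), and the call for control against P10 was lost (adjusted p = 0.070).

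The third, chr16:7193747-7193877, lies close to the coding exons and was almost wholly a P49 exon. Its junction had 12 and 16 reads at P10, 183 and 105 at P49, 1 and 0 in control cultures and 1 and 2 with DRB. Relative to the gene it rose by 3.08 (log2) from P10 to P49 (edgeR, adjusted p = 4.4e-13, at most 5.0e-07 with 1 library left out). The level was 0.194 ± 0.029 CPM at P10 and 2.25 ± 0.68 at P49, and the 2 P49 libraries differed from each other, at 0.968% ± 0.266 of the gene's reads. In the 4 libraries of the second experiment the junction had 1, 0, 1 and 1 reads. Oligodendrocyte markers had the same order over these groups (P49 highest, P10 next, cultures lowest), and their part in this result was not tested.

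**Figure D5:**
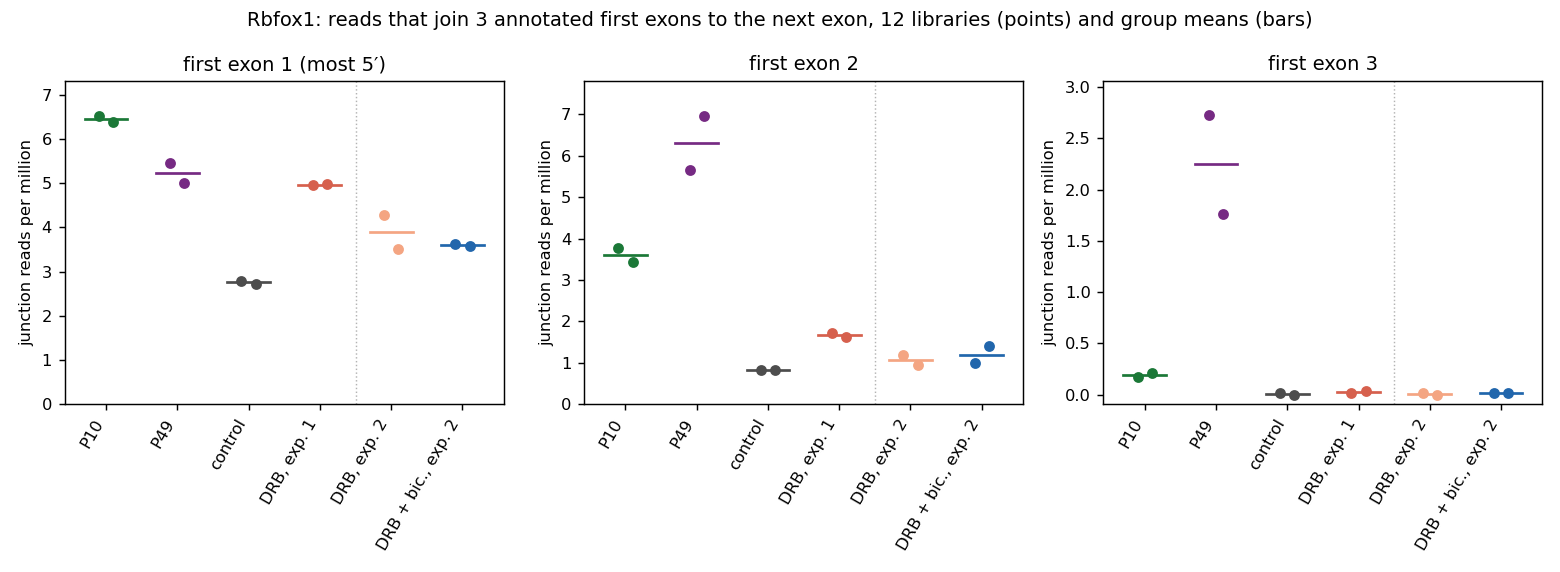
CPM (vertical axes, linear) of the junctions that join 3 annotated first exons of Rbfox1 to the next exon, in 12 libraries. Points are libraries and bars are means of 2. First exon 1 is highest at P10, first exon 2 is highest at P49, and first exon 3 is at 2.25 CPM on average at P49 and at or below 0.194 CPM on average elsewhere.

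Further downstream, the 40-base exons of Rbfox1 and Rbfox2 shown above stand in place of 43-base exons, and the choice between them is known to separate brain forms from muscle and other forms of these proteins. Over all 12 libraries the junction listed for the Rbfox1 40-base exon had 7008 reads, and that for the 43-base exon 18. In Rbfox2 these were 10057 and 173. The junction listed for the 40-base exon had more reads in each library of each group. In Rbfox2 the 43-base junction had 8 to 25 reads a library. The 2 junctions of a gene lie on different sides of the exons, and no ratio was tested. No annotated junction entering either 43-base exon was listed, so the counts depend on the listing and do not measure the choice.

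The 93-base exon in the RNA-binding domain of Rbfox2 and Rbfox3 varied little within the larger table. Its share of the gene's reads was 17.7% ± 0.7 at P10, 17.0% ± 0.3 at P49 and 17.7% ± 0.1 in control cultures for Rbfox2, and 19.9% ± 1.1, 20.1% ± 0.001 and 20.2% ± 0.2 for Rbfox3. No junction on either side was called in a comparison within the larger table. In the second experiment the share was 23.4% ± 0.02 with DRB and 23.6% ± 0.1 with bicuculline for Rbfox2. For Rbfox3 it was 25.7% ± 0.7 and 25.8% ± 0.6, and the values of both genes lay above those of the larger table. The 54-base exon of Rbfox1 held 17.8% ± 0.1 of reads at P10, 18.5% ± 0.3 at P49 and 16.6% ± 0.2 in control cultures, also without a call.

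The Hu genes gave fewer junction results. In Elavl2 the junction from a noncoding 91-base exon to the next exon took 85.5% and 83.3% of its acceptor's reads at P10, 92.1% and 91.0% at P49 and 82.6% and 83.1% in control cultures. Relative to the gene it was lower in control cultures than at P49 (log2 -0.53, edgeR, adjusted p = 0.0092), a call that was lost without P49 library 2 or either control library (adjusted p from 0.080 to 0.11). A rarely used junction to the same acceptor, from another donor, had 14 and 15 reads at P10, 5 and 0 at P49 and 9 and 3 in control cultures. Its share was called lower at P49 than at P10 (edgeR, adjusted p = 0.025) and higher in control than at P49 (0.026), and both calls were lost in the logit test and without P49 library 2, among others (adjusted p = 0.52 and 0.37).

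The 39-base exons of Elavl2 and Elavl4, in the linker between RNA-binding domains that sets where these proteins reside, are identical at 33 of 39 positions. In each gene 3 listed junctions end at the exon, and together they held 33.3% ± 1.8 of the gene's reads at P10, 30.4% ± 1.4 at P49 and 32.7% ± 1.1 in control cultures for Elavl2, and 42.6% ± 2.7, 42.0% ± 1.7 and 41.2% ± 0.5 for Elavl4. No junction of either exon was called. In the second experiment the Elavl4 exon held 31.3% ± 2.9 with DRB and 33.2% ± 0.4 with bicuculline, and the Elavl2 exon 29.6% ± 0.3 and 30.2% ± 0.5. From the Elavl4 exon, 2 acceptors were used, the further one taking 41.2% and 40.9% of reads at P10 and 50.5% and 50.2% in control cultures. The edgeR test did not call this difference, and the logit test did (limma, adjusted p = 0.027). In Elavl3, 1 tested donor used 2 annotated acceptors, and the less used one took 10.6% to 14.3% of its reads over the 12 libraries. When every listed junction was counted, another Elavl3 donor also used an unannotated acceptor. That acceptor took 50.3% and 52.7% of reads at P10 and 49.5% and 46.0% in control cultures, with no call in any comparison.

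Nova1 and Nova2 had few annotated junctions, 7 of 74 and 3 of 34 listed in the larger table. At the one Nova1 donor tested with annotated junctions, an exon was entered by 0.9% to 6.6% of reads over the 12 libraries, with no call. At its tested acceptor the less used junction took 1.5% to 11.0%. When every listed junction was counted, an unannotated junction took 9.6% to 25.0% of reads at another Nova1 donor, without a call. Nova2 has 3 annotated junctions, all listed, and no site with an annotated choice. In Rbfox3 the donor of one exon used 2 acceptors, the less used of which took 34.0% and 30.3% of reads at P10 and 41.4% and 39.6% in control cultures. The edgeR test did not call it, and the logit test did (limma, adjusted p = 0.014).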

How the data were processed

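Per the submitters' processing notes, the authors aligned reads with STAR 2.4.0f1 to mm10 (GRCm38). No source used here records how junction reads were counted or filtered. The authors deposited 2 tables of read counts across each junction, per the file headers, with 638144 and 449433 rows. Their headers have 3 more names than their rows have cells (67 against 64 and 39 against 36), so columns were read by number. Column names show groups only, some by elimination, and libraries 1 and 2 follow column order. Another 72 columns of per-library values stayed unused because no label matched them, so intron retention is not reported.

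Distinct junctions matching introns of GENCODE release 21 on the same strand (99.16% to 99.31% of reads) were summed per symbol. Rows without a gene symbol (0.0794% to 0.0965% of reads) were left out. edgeR 4.0.16 (TMM, its filter on low counts, quasi-likelihood test, two-sided) fitted all libraries of a table. diffSpliceDGE tested junctions against their splice site or their gene. Adjustment ran over the whole table. Named junctions had an adjusted p below 0.05 and a share difference of at least 10 percentage points. Other regulators were named up to 4 per direction by p, and alike genes 2 per member. Alternatives used DESeq2 1.42.0, limma 3.58.1, other filters, every junction, only the groups compared, each library left out and a block. Models were tested on simulated data (R 4.3.3). Intron flanks of exons were not searched for motifs, since no genome was used here. Members and lists were chosen with earlier results of these data known. With 2 libraries a group, precision rests on the spread shared across groups.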

Additional observations from a re-analysis of the deposited data

How the results depend on the processing

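Counts of genes called moved by less than 1.5 times in every alternative except with bicuculline, where 30 calls became 67 with no filter on low counts and 96 with a replicate block by the letter in the column names. Leaving out 1 library there gave 36 to 82, and no member was called in any of these. No paired analysis was possible in the larger table because its columns carry no replicate numbers. In the smaller, the difference between the letters was hardly shared by the 2 groups (Pearson's r = 0.0850 over 14138 genes). This value does not settle whether the libraries were paired. The block changed no member's call.

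Counts of splice-site calls depended on the method and on the junctions counted. In the order every junction, limma voom, limma logits, and logits with every junction, P49 against P10 went from 539 to 1029, 1348, 1789 and 3215 (members from 3 to 6, 6, 5 and 14). Control against P10 went from 1208 to 2030, 2296, 2646 and 4368 (members from 1 to 0, 2, 6 and 9). Control against P49 went from 1684 to 2978, 3102, 3484 and 6043 (members from 4 to 13, 8, 6 and 16, and 2 with only the groups compared). DRB against control went from 644 to 1518, 1448, 1786 and 3754 (members from 2 to 2, 4, 6 and 8). With bicuculline the 1 call became 2 with voom, 2 with logits and 6 with logits and every junction.

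Leaving out 1 library gave 320 to 415, 715 to 926, 1118 to 1304 and 284 to 316 site calls in the 4 comparisons of the larger table, with 0 to 2, 0 to 1, 2 to 4 and 2 to 2 among members. For junctions within genes it gave 4523 to 6675 for control against P10 (members 2 to 6), 5300 to 5866 for control against P49 (members 4 to 10), 1193 to 1447 for DRB and 0 to 2 with bicuculline. With only the groups compared, member calls there were 3 rather than 6 for control against P10 and 6 rather than 2 for DRB, and 5 for DRB with voom. These fits have fewer libraries, and the cause of the other differences was not tested.

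Direction turned in values that were not called in the fit of all libraries. Among them was Mbnl2, whose calls without single P10 libraries are given above. With 1 library left out, Mbnl2 ranged from -0.22 to 0.18 (control against P10, log2), and with DRB Nova2 from -0.0099 to 0.129 and Mbnl1 from -0.016 to 0.0368. With bicuculline the ranges were -0.0706 to 0.0218 for Rbfox1, -0.0692 to 0.0511 for Rbfox2, -0.0994 to 0.0040 for Rbfox3, -0.0535 to 0.0582 for Nova1, -0.0227 to 0.0447 for Mbnl1, -0.0329 to 0.0703 for Elavl3 and -0.0246 to 0.0473 for Elavl4. Nova1 was there at -0.00024 with DESeq2 and -0.0096 with every junction. Where 1 library is left out of a group, the remaining one is assumed to vary like the other groups. Few reads limited the rarely used junctions most.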
